A study of Homo sapiens with 21 samples.

Results

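The comparison described here sets cells given coumarin at 0.1 and 1 µM (6 libraries, called the upper doses) against cells given 0.001 and 0.01 µM (6 libraries, called the lower doses), and asks whether any transcript moves with dose below 10 µM. The 12 libraries were taken from the 21 of the series by the dose in their labels. Those at 0, 10 and 100 µM took no part in this comparison, and their values place a gene on the whole dose range; cells given 100 µM were set against those given 10 µM in a separate test. The cell line on all labels is HepG2, which was established from a tumour of the human liver. Each dose had 3 libraries, made from cells treated for 24 h in serum-free DMEM, so cells at every dose, the untreated ones included, had also lost serum for that time. Poly(dT) beads were used to purify the RNA. Nothing in the labels says whether the libraries of a dose came from separately grown cultures, and p-values then measure the spread between these libraries, which may be technical. No batch or date is named either.

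Coumarin is a benzopyrone made by plants such as tonka bean and sweet clover. In human liver it is mainly hydroxylated by the cytochrome P450 enzyme CYP2A6, and other P450 enzymes can turn it into an epoxide. Cells respond to many foreign compounds through receptors that switch on oxidising and conjugating enzymes, and to shortage of amino acids through the transcription factor ATF4, which raises genes of serine and asparagine synthesis.

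Gene counts totalled 27295690 to 33246725 per library, and 16216 of 58735 genes passed the count filter, 12474 of them protein-coding. Replicates of a dose varied by 4.35% (edgeR's common biological coefficient of variation). Transcripts that define hepatocytes went against the label: of 10 such genes, ALB, TTR, APOC3 and FGB had 0 counts in all 12 libraries, which allows up to 3 counts, or 0.11 CPM in the smallest library. Their sum over the 10 genes was 0 to 0.152 CPM at the upper doses and 0.0309 to 0.345 CPM at the lower doses. CPM are counts scaled to library size, after TMM scaling of library sizes. CYP2A6 had 0 to 5 counts per library at the upper doses and 0 to 3 at the lower doses, too few to test. Summed epithelial markers were 4660 to 4910 CPM at the upper doses and 4610 to 4810 CPM at the lower doses, and summed mesenchymal markers were 1760 to 1830 CPM at the upper and 1750 to 1880 CPM at the lower doses. These sums do not show every member expressed. Of the 6 epithelial markers 4 passed the count filter, and CDH1, among those 4, had few counts (given below). Of the 6 mesenchymal markers, PDGFRA had 0 counts in all 12 libraries. On the first principal component of the 12 libraries (13% of the variance), 0.001 µM replicates 1 and 2 (scores 15.25 and 16.98) and 1 µM replicate 3 (14.7) stood apart from the others, which lay between -13.08 and 2.34.

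Few transcripts differed between the upper and the lower doses, and the differences were small. In the fit over the 12 libraries 40 genes changed, 0.247% of those tested. Of these, 12 rose (0.074%) and 28 fell (0.173%), and 39 code for protein (0.313% of coding genes tested), with a median absolute log2 change of 0.19 and a smallest adjusted p of 0.00292. Throughout, adjusted p is from edgeR's quasi-likelihood test after Benjamini-Hochberg adjustment over all genes tested, called at 0.05; only genes past that limit are said to have risen, fallen or changed. Only 1 of the 40 moved by at least 1.5-fold. Among genes at 1 CPM or more, the rises reached 0.19 and the falls 0.50 on the log2 scale. Without regard to multiple testing, 1587 genes (9.79%) had a p under 0.05. In bulk RNA, fewer cells of a type and less RNA per cell cannot be told apart. The number of genes called moved with single libraries. It was 14, 15 and 155 without 0.001 µM replicate 1, 2 and 3, and 4, 13 and 6 without 0.01 µM replicate 1, 2 and 3. It was 47, 7 and 2 without 0.1 µM replicate 1, 2 and 3, and 14, 17 and 10 without 1 µM replicate 1, 2 and 3. All 40 kept their direction in every one of these fits, but only PPFIA4 and NME1 stayed past the threshold in all of them, PALM in 11 of 12, NXPH4 in 9, ZNF703 in 8 and STRA6 in 7, and the other 34 in at most 5.

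**Figure D1:**
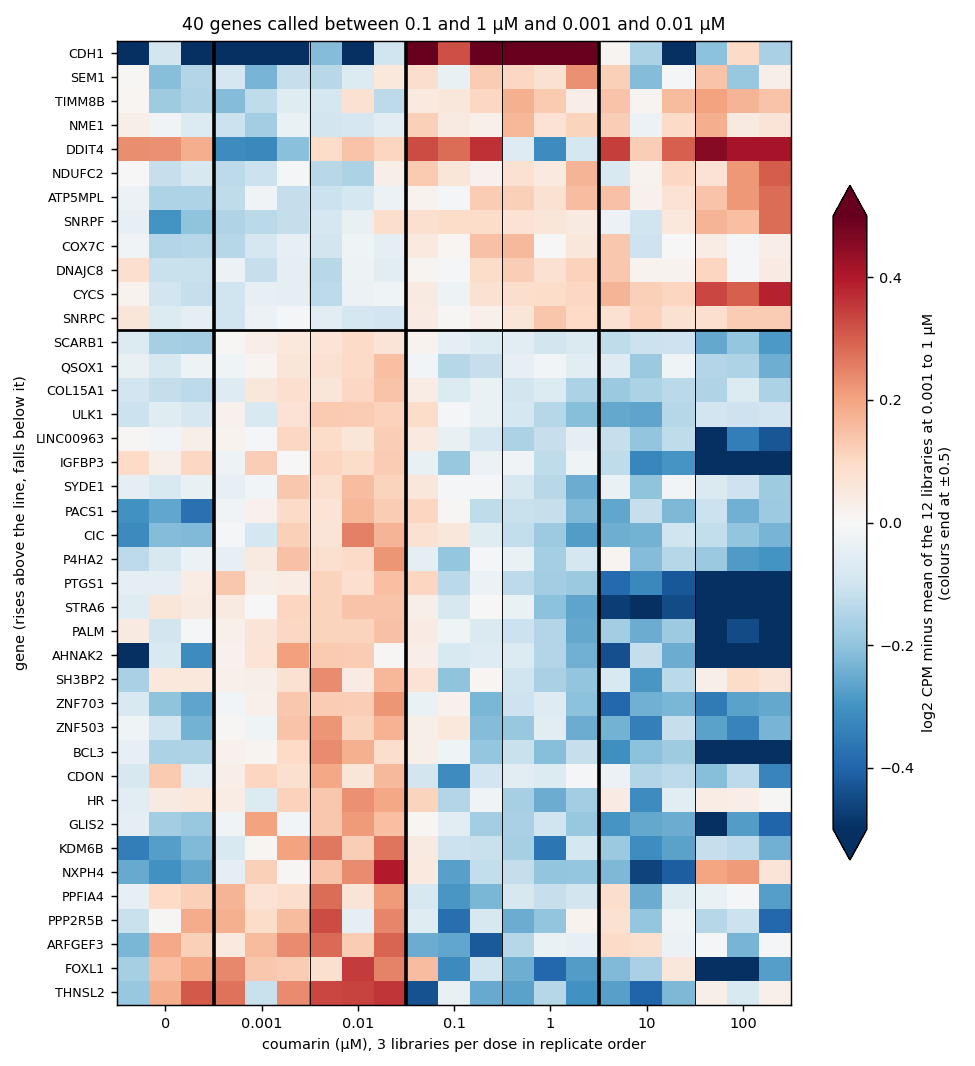
Log2 CPM of the 40 changed genes (rows) in all 21 libraries (columns, by coumarin dose in µM), each minus that gene's mean over the 12 libraries at 0.001 to 1 µM; red is above and blue below that mean, and colours end at ±0.5. Thick lines separate 0 µM, the lower doses, the upper doses, and 10 and 100 µM. Rises are the 12 rows above the horizontal line and falls the 28 below it; DDIT4 is red at 0.1 µM and blue at 0.001 and 1 µM.

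The promoters of 4 genes are printed because the results turn on them: PPFIA4 and NME1 hold the most stable fall and rise, DDIT4 had the smallest p for any difference among the 4 doses, and ADM, which like DDIT4 is induced by low oxygen, also differed among them. Sequences are from RefSeq (GRCh38.p14), 250 bases before to 50 bases after the start of the gene, read 5′ to 3′ on the gene's strand. Capitals mark the core letters bound by hypoxia-inducible factors, searched on both strands in an A form, ACGTG, and a form with G in the first place, GCGTG, called the G form; a match on the other strand is printed as its complement. The E-box of MYC and its partners, CACGTG, holds the A form on both strands and counts as 2 matches to it. Of 35116 promoters of this length, 21.4% held the A form, 36.5% the G form, 48.4% at least 1 of them and 7.26% the E-box.
PPFIA4 (chr1:203026241-203026540, plus strand): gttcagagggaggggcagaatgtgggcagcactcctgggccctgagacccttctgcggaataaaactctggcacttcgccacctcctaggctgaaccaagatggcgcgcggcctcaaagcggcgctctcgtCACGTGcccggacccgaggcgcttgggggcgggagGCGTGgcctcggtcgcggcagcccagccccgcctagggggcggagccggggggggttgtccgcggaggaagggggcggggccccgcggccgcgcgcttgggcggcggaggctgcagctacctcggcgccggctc
NME1 (chr17:51153309-51153608, plus strand): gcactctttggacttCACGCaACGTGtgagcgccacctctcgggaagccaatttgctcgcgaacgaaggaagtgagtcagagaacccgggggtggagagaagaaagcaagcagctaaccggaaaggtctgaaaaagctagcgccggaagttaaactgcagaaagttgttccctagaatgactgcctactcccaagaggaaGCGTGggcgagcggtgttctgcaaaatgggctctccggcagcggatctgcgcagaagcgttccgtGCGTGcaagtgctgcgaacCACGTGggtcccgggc
DDIT4 (chr10:72273674-72273973, plus strand): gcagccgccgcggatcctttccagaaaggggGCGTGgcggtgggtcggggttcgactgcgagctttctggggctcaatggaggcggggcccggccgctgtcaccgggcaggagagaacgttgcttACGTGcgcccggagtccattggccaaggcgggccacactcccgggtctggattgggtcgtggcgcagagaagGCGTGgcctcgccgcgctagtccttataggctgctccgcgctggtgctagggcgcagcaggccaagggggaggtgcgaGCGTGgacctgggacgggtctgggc
ADM (chr11:10304823-10305122, plus strand): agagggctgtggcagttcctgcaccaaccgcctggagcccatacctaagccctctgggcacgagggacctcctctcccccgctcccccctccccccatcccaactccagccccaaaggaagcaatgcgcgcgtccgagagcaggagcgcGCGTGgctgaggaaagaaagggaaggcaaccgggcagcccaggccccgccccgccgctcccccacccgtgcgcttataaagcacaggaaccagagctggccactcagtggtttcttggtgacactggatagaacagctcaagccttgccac
PPFIA4 held 2 matches to the A form, both in 1 E-box, and 1 to the G form. NME1 held 3 of each, also with 1 E-box, DDIT4 held 1 of the A and 3 of the G form, and ADM held 1 of the G form. A match is a description of these letters and not a binding site, and these 4 were chosen for their values.

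PPFIA4, which encodes liprin-alpha-4, a scaffold protein known from synapses, fell and had the smallest p of all. It had 28.0, 24.2 and 25.2 CPM at 0.1 µM and 28.0, 27.3 and 27.8 CPM at 1 µM, against 33.3, 31.1 and 31.5 CPM at 0.001 µM and 35.9, 30.9 and 34.3 CPM at 0.01 µM. No upper-dose library reached the lowest of the lower doses. The fitted log2 change was -0.30 ± 0.04 (SE; 18.9% lower, adjusted p = 0.00292). The gene (GRCh38, chr1:203026498-203078740) had means of 30.9 CPM in untreated cells, 28.2 CPM at 10 µM and 27.6 CPM at 100 µM.

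NME1, which encodes a nucleoside diphosphate kinase, rose. It had 136, 129 and 127 CPM at 0.1 µM and 140, 132 and 135 CPM at 1 µM, against 116, 111 and 122 CPM at 0.001 µM and 117, 118 and 121 CPM at 0.01 µM. The groups did not overlap, and the log2 change was 0.18 ± 0.03 (SE, adjusted p = 0.00729). NME1 lies beside NME2, with which it shares a read-through transcript, and how reads of overlapping genes were counted is not given in the sources used here. Its mean was 123 CPM without coumarin, 131 CPM at 10 µM and 134 CPM at 100 µM.

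PALM, which encodes paralemmin, a phosphoprotein of the inner face of the plasma membrane, fell with a log2 change of -0.19 ± 0.03 (SE, adjusted p = 0.00729). It had 85.6, 81.9 and 79.1 CPM at 0.1 µM and 77.3, 75.2 and 69.7 CPM at 1 µM, against 84.7, 87.1 and 89.6 CPM at 0.001 µM and 89.9, 89.8 and 92.1 CPM at 0.01 µM. Of the upper-dose libraries only 0.1 µM replicate 1 reached into the range of the lower doses. Its mean was 82.3 CPM in untreated cells, 72.4 CPM at 10 µM and 58.6 CPM at 100 µM, and in the 6 libraries of those highest doses it fell at 100 against 10 µM (log2 change -0.31, adjusted p = 1.46e-05).

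STRA6, the membrane receptor that takes up retinol from its plasma carrier, fell with a log2 change of -0.19 ± 0.03 (SE, adjusted p = 0.0225). The upper doses had 93.7, 86.7 and 91.6 CPM (0.1 µM) and 89.7, 79.5 and 76.5 CPM (1 µM), against 94.7, 91.9 and 98.9 CPM (0.001 µM) and 99.2, 101 and 101 CPM (0.01 µM) at the lower doses. Apart from 0.1 µM replicate 1, every upper-dose library lay below the lowest of the lower doses. Over the whole range the mean was 92.8 CPM at 0 µM, 95.2 at 0.001, 101 at 0.01, 90.7 at 0.1, 81.9 at 1, 64.3 at 10 and 33.8 CPM at 100 µM. At 100 against 10 µM it fell with a log2 change of -0.93 (adjusted p = 2.39e-15).

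The other 25 falls, 24 of them protein-coding, were each within 0.50 on the log2 scale. Regulators of transcription and chromatin among them were KDM6B, a demethylase of histone H3 lysine 27 (26.2 ± 2.34 CPM at the upper and 31.5 ± 3.02 CPM at the lower doses, SD, n = 6 each; adjusted p = 0.0455), the zinc-finger factors GLIS2, ZNF703 and ZNF503, the repressor CIC, the corepressor HR, the forkhead factor FOXL1 and the NF-kB cofactor BCL3. Proteins of the secretory route and the matrix were P4HA2, which hydroxylates collagen prolines (54.7 ± 2.79 CPM and 62.1 ± 3.83 CPM at the upper and lower doses; adjusted p = 0.0462), the collagen chain COL15A1, the disulfide-forming oxidase QSOX1, the insulin-like growth factor carrier IGFBP3 and the neurexophilin NXPH4 (24.3 ± 1.90 CPM and 29.7 ± 3.38 CPM; adjusted p = 0.02). CDON, a co-receptor for Hedgehog ligands, had 22.1 to 27.4 CPM at the upper doses, below the 28.2 to 31.5 CPM at the lower ones (adjusted p = 0.0455). ARFGEF3, of the family that activates ARF proteins, had 4.07 to 5.35 CPM and 5.68 to 6.73 CPM at the same doses (adjusted p = 0.037). The largest fall at 1 CPM or more was that of THNSL2, a threonine synthase-like gene, at 2.36 ± 0.234 CPM (upper) and 3.34 ± 0.386 CPM (lower; log2 change -0.50 ± 0.11 SE, adjusted p = 0.0462). PTGS1, which encodes cyclooxygenase-1, the HDL receptor SCARB1, the autophagy kinase ULK1, the phosphatase subunit PPP2R5B, and AHNAK2, SYDE1, SH3BP2, PACS1 and the noncoding LINC00963 make up the rest. PPFIA4, CDON and ARFGEF3 were the 3 falls whose 6 upper-dose libraries all lay below the 6 lower-dose ones, an arrangement that 0.16% of all genes tested showed.

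The 11 rises other than CDH1 had log2 changes of 0.12 to 0.19, beside falls of 0.11 to 0.50. Several encode mitochondrial proteins: the ATP synthase component ATP5MPL (69.7 to 77.9 CPM at the upper and 64.0 to 69.0 CPM at the lower doses), the cytochrome oxidase subunit COX7C (406 to 453 CPM and 367 to 400 CPM), the complex I subunit NDUFC2, cytochrome c itself (CYCS) and the import chaperone TIMM8B. Their log2 changes lay between 0.12 and 0.18 and their adjusted p between 0.0458 and 0.0499. SNRPF and SNRPC are proteins of the spliceosomal small ribonucleoproteins, and DNAJC8 is a J-domain protein that associates with the spliceosome; their log2 changes were 0.14, 0.12 and 0.13. SEM1, a small subunit of the proteasome lid, had a log2 change of 0.19 ± 0.04 (SE, adjusted p = 0.0458), with 95.6 to 115 CPM at the upper doses and 83.3 to 102 CPM at the lower doses. CDH1, which encodes E-cadherin, had the largest change (log2 1.64 ± 0.34 SE, adjusted p = 0.0462), but it rested on 9 to 13 counts per library at the upper doses and 2 to 6 at the lower doses. In 6 of the 12 rises (CDH1, NME1, ATP5MPL, COX7C, DNAJC8 and SNRPC) no library of the upper doses overlapped the lower doses, as in 0.296% of all genes tested.

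**Figure D2:**
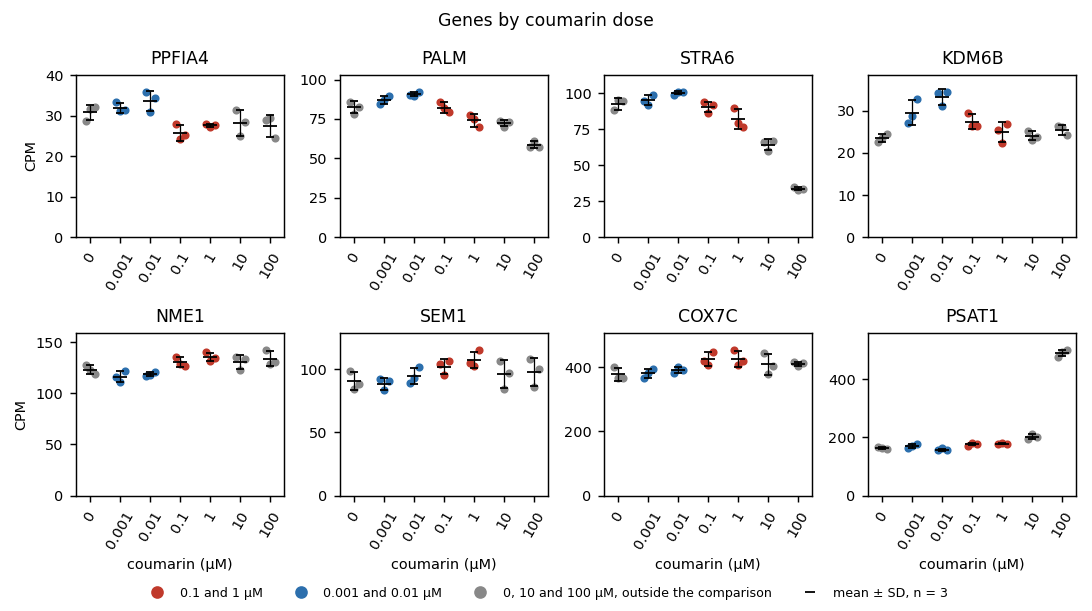
CPM of 8 genes (vertical axis, from 0) by coumarin dose in µM (horizontal axis): points are libraries, black bars the mean ± SD of 3; red marks 0.1 and 1 µM, blue 0.001 and 0.01 µM, and grey the doses outside the comparison. STRA6 and PALM were lower still at 10 and 100 µM, and PSAT1 stood at or below 211 CPM up to 10 µM and at 477 to 499 CPM at 100 µM.

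A steady rise or fall with dose was rarer still. A slope on log10 dose over the 12 libraries passed the test in 2 genes (0.0123%), both rising: NME1 by 0.08 ± 0.01 log2 units and SEM1 by 0.09 ± 0.02 log2 units per 10-fold dose (SE; adjusted p = 0.0487 for each). Neither call was stable: that of NME1 was kept in 6 and that of SEM1 in 4 of the 12 fits that left out 1 library, and both were lost with upper-quartile scaling, with 1 CPM required in 3 libraries and in both limma fits on FPKM. With GC and length trends removed the slope of NME1 passed (adjusted p = 0.00413) and that of SEM1 did not (adjusted p = 0.128). At an unadjusted p under 0.05 stood 1428 genes (8.81%). Testing for any difference among the 4 doses called 60 genes (0.37%), of which 21 were among the 40.

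DDIT4 had the smallest p for any difference. It encodes an inhibitor of the growth kinase complex mTORC1 that is induced by low oxygen, by glucocorticoids and by shortage of nutrients. DDIT4 had 191, 190 and 205 CPM at 0.001 µM, 253, 262 and 256 CPM at 0.01 µM, 298, 288 and 306 CPM at 0.1 µM and 227, 191 and 224 CPM at 1 µM. Within each dose the 3 libraries stayed close, and only the doses 0.001 and 1 µM overlapped. Its adjusted p for any difference was 1.17e-06 and stayed at or below 0.0266 in every alternative run. It rose at 0.01 against 0.001 µM (log2 0.39 ± 0.05 SE, adjusted p = 0.000652), and at 1 against 0.1 µM it fell (log2 -0.47 ± 0.05 SE, adjusted p = 3.58e-05). The rise at the first step was kept in every fit that left out 1 library but in 7 of 12 other alternatives; it was lost with GC and length trends removed (adjusted p = 0.106), with the part of the reads that lay outside counted genes as a covariate, without the 3 libraries apart on the first component and in both limma fits on FPKM. The fall at 1 against 0.1 µM was lost in those limma fits alone. Untreated cells had 279, 278 and 269 CPM, between the values at 0.01 and 0.1 µM. So the rise of DDIT4 at the upper doses (log2 0.17 ± 0.04 SE, adjusted p = 0.0484) came with a difference of 0.47 between the upper doses themselves, and it was lost in 10 of the 12 fits that left out 1 library.

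ADM, which encodes the vasodilator peptide adrenomedullin and is another gene induced by low oxygen, went the same way. Its libraries had 11.4, 12.2 and 12.9 CPM at 0.001 µM, 18.8, 19.8 and 19.9 CPM at 0.01 µM, 27.2, 25.3 and 30.3 CPM at 0.1 µM and 16.9, 10.9 and 16.7 CPM at 1 µM. Only the 0.001 and 1 µM libraries overlapped. ADM changed among the 4 doses (adjusted p = 0.0136), but not between the upper and lower doses (log2 0.39 ± 0.10 SE, adjusted p = 0.197). Between the upper and lower doses it missed the threshold in 11 of the 12 fits that left out 1 library. It also did so in 11 of 12 other alternatives, passing in the rest. Its call for any difference was kept in every fit that left out 1 library and lost in 5 of the other alternatives, among them removal of the trends with GC content and length (adjusted p = 0.0566). Its mean was 31.5 CPM without coumarin, 30.1 CPM at 10 µM and 28.5 CPM at 100 µM.

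Between neighbouring doses, 2 genes rose and 0 fell at 0.01 against 0.001 µM (0.0123% of those tested), 0 rose and 9 fell at 0.1 against 0.01 µM (0.0555%), and 3 rose (0.0185%) and 4 fell (0.0247%) at 1 against 0.1 µM, 0.0432% in all. At an unadjusted p under 0.05 these steps held 947, 832 and 1852 genes. GPR89B, a Golgi pH regulator with a near-identical copy that can share its reads, had 6.85 to 7.80 CPM at 0.001 µM and 10.9 to 13.5 CPM at 0.01 µM, and 7.30 to 8.07 CPM at 0.1 µM. Its rise and its fall both passed the test (adjusted p = 0.000652 and 0.0028). Each was kept in 9 of 12 other alternatives and lost with all 21 libraries in the fit and in both limma fits on FPKM; the fall was also lost without 0.01 µM replicate 1 and without 0.1 µM replicate 3. Apart from GPR89B, the genes that fell at 0.1 against 0.01 µM were PPFIA4, NXPH4, QSOX1, ARFGEF3 and CDON, described above, and EGR1, IER2 and CTGF. EGR1 and IER2 are immediate early genes, which cells transcribe within minutes of a stimulus, and CTGF encodes a matrix-associated growth factor driven by YAP. EGR1 had 5.18, 6.97 and 4.62 CPM at 0.01 µM, 2.45, 1.54 and 1.26 CPM at 0.1 µM and 4.48, 2.71 and 3.48 CPM at 1 µM (log2 change at 0.1 against 0.01 µM -1.68 ± 0.24 SE, adjusted p = 0.0077). CTGF fell and rose again, with 54.0, 55.1 and 49.3 CPM at 0.01 µM, 45.4, 44.1 and 40 CPM at 0.1 µM and 55.7, 53.5 and 55.7 CPM at 1 µM (adjusted p = 0.0259 and 0.00284). TXNIP, a glucose-induced inhibitor of thioredoxin, had 195, 194 and 202 CPM at 0.01 µM, 177, 176 and 182 CPM at 0.1 µM and 201, 210 and 218 CPM at 1 µM, and its rise at 1 against 0.1 µM passed (log2 0.24 ± 0.04 SE, adjusted p = 0.00498). VMP1 also rose at that step, while RHOB, TAPBP and the noncoding AL161431.1 fell with DDIT4. In the 12 fits that left out 1 library, VMP1 kept this call in 3, RHOB in 4, TAPBP in 5, AL161431.1 in 7 and TXNIP in 9. CTGF kept its rise in all 12. The falls at 0.1 against 0.01 µM were kept in 9 of them for EGR1 and in 8 for IER2 and CTGF. That of EGR1 was also lost without the 3 libraries apart on the first component. Of EGR1, IER2, CTGF, TXNIP and GPR89B, none passed the test between the upper and lower doses (adjusted p from 0.106 for EGR1 to 0.68 for CTGF). TXNIP did so once the trends with GC content and length were removed (adjusted p = 0.0324) and in no other alternative. EGR1 missed the threshold in 10 of the 12 fits that left out 1 library and in 11 of 12 other alternatives, passing in the rest. IER2 missed it in all 12 of those fits and in 12 of 13 other alternatives. CTGF and GPR89B passed in no alternative run. Leaving out 0.01 µM replicate 1 or 0.1 µM replicate 3 ended all calls at 0.1 against 0.01 µM, and without 0.001 µM replicate 3 the first and last steps held 139 and 161 genes.

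**Figure D3:**
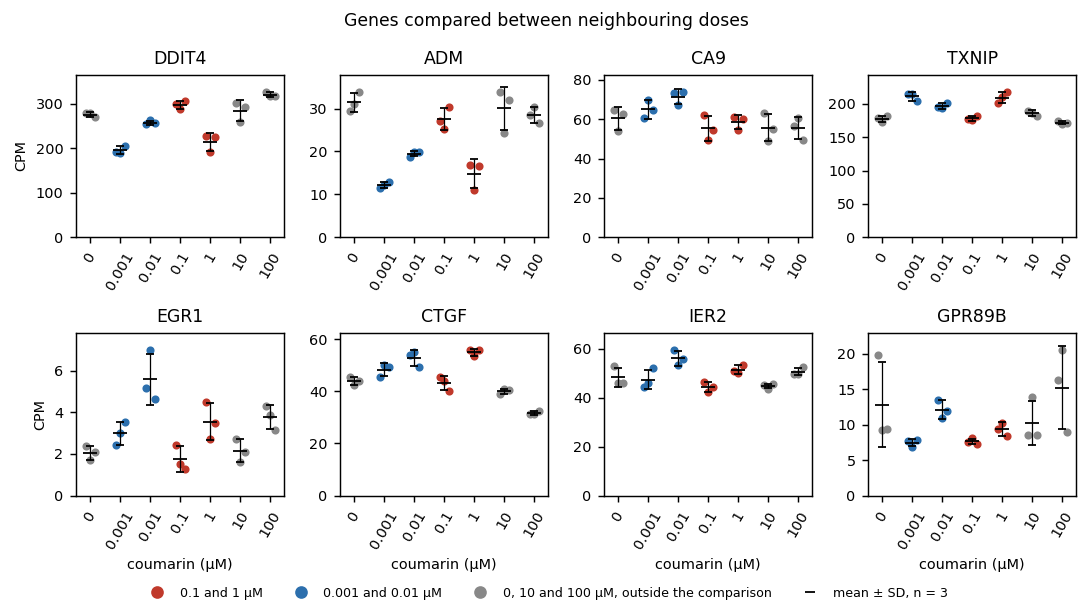
CPM of 8 genes that were compared between neighbouring doses (vertical axis, from 0) by coumarin dose in µM (horizontal axis); points are libraries, black bars mean ± SD of 3, red 0.1 and 1 µM, blue 0.001 and 0.01 µM, grey the doses outside the comparison. Among the 4 doses from 0.001 to 1 µM, the means of DDIT4 and ADM were highest at 0.1 µM, whereas those of TXNIP and CTGF were lowest there. ADM passed no test between neighbouring doses in the main fit, and DDIT4 did not pass at 0.1 against 0.01 µM. In the main fit CA9 passed no test among the 4 doses from 0.001 to 1 µM.

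Gene lists chosen for liver-derived cells and a foreign compound gave few calls. Of 39 lists with a tested member, 33 had no member past the test between the upper and lower doses. Among 34 tested genes of the ATF4 and amino acid response, DDIT4 alone rose and 0 fell, with a median log2 change of 0.007 against -0.001 over all genes tested. PSAT1, an enzyme of serine synthesis, had 172 to 181 CPM at the upper and 155 to 176 CPM at the lower doses and missed the threshold between them (log2 0.11 ± 0.03 SE, adjusted p = 0.057). It also missed it in 11 of the 12 fits that left out 1 library and in 11 of 13 other alternatives, passing in the rest. PSAT1 did pass the test for any difference among the 4 doses (adjusted p = 0.0358), a call kept in 5 of the 12 fits that left out 1 library and lost with GC and length trends removed (adjusted p = 0.0784). At 100 against 10 µM it rose with a log2 change of 1.28 (adjusted p = 4.34e-22). ASNS (1.88 ± 0.422 CPM at the upper and 1.73 ± 0.212 CPM at the lower doses), CHAC1 (2.08 ± 0.215 and 2.06 ± 0.257 CPM) and PHGDH (242 ± 4.90 and 236 ± 3.27 CPM), which make asparagine, degrade glutathione and start serine synthesis, had adjusted p of 0.842, 0.985 and 0.705. None of 9 targets of the aryl hydrocarbon receptor passed (median log2 -0.008), nor any of 25 targets of the antioxidant factor NRF2 (0.019), 9 genes of coumarin and drug oxidation (-0.019) or 11 conjugating enzymes (0.027).

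The 26 genes of glycolysis and the hypoxia response leaned the other way from ADM and DDIT4. In the main fit none passed the test, 20 had negative log2 changes, and the median was -0.07. At an unadjusted p under 0.05, 11 were lower and 1 (ADM) was higher, beside 840 lower and 747 higher among all genes tested. CA9, a carbonic anhydrase induced by low oxygen, had 62.0, 49.3 and 54.7 CPM at 0.1 µM and 61.1, 54.4 and 60.2 CPM at 1 µM, against 60.4, 69.8 and 64.7 CPM at 0.001 µM and 73.6, 67.2 and 73.9 CPM at 0.01 µM (log2 -0.26 ± 0.05 SE, adjusted p = 0.0695). ENO2, a glycolytic enolase, had 91.7 to 111 CPM at the upper and 110 to 128 CPM at the lower doses (adjusted p = 0.0563). CA9 missed the threshold in 10 of the 12 fits that left out 1 library and in 9 of 13 other alternatives. ENO2 missed it in 10 of 12 and in 7 of 13, and both genes passed in the rest. GAPDH and LDHA, which are glycolytic enzymes, had log2 changes of -0.004 and -0.003. Of the 24 members with a promoter in the RefSeq table, 17 (70.8%) held the A or the G form printed above, beside the 48.4% of all promoters. The list was chosen for the hypoxia response, and all promoters are not matched to it in GC content or expression. These shares are therefore a description, and a part of hypoxia-inducible factors in the lean was not tested. The list's median between the upper and lower doses stayed negative, between -0.09 and -0.05, in every alternative run. It did not fall at each step of dose. Its median was 0.092 at 0.01 against 0.001 µM, -0.116 at 0.1 against 0.01 µM and 0.021 at 1 against 0.1 µM.

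Of 14 tested genes of retinoic acid metabolism and response, STRA6 fell and 12 of 14 had negative log2 changes (median -0.06). With GC and length trends removed, 10 of 14 were negative (median -0.037). CYP26B1, which degrades retinoic acid, had 16.8 to 20.6 CPM at the upper and 19.1 to 23.5 CPM at the lower doses (adjusted p = 0.218). It fell at 100 against 10 µM (log2 -0.89, adjusted p = 4.76e-08). CRABP2, a carrier of retinoic acid, had 3.45 ± 0.639 CPM and 4.14 ± 0.542 CPM (adjusted p = 0.35). In the collagen and matrix list P4HA2 fell and 15 of 16 tested genes had negative changes (median -0.05). LOX, which crosslinks collagen, had 53.9 to 67.6 CPM at the upper and 66.5 to 75.7 CPM at the lower doses (adjusted p = 0.09). Once the trend with GC content and length was removed, 11 of 16 stayed negative and the median was -0.02. Without that removal the list's medians at the 3 steps, from low to high dose, were 0.08, -0.085 and -0.046.

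Several lists leaned upwards without a member that passed. Of 29 nuclear-encoded respiratory chain genes 28 had positive log2 changes (median 0.06, 9 at an unadjusted p under 0.05), of 20 ribosome biogenesis genes 19 (median 0.05), of 41 cytosolic ribosomal protein genes 38 (0.04), of 15 heat shock proteins 13 (0.08) and of 26 genes of cholesterol synthesis 21 (0.06), against 7989 of 16216 genes in all. At 0.01 against 0.001 µM the medians of the cholesterol and respiratory chain lists were negative (-0.028 and -0.006). That of the cholesterol list was negative at 1 against 0.1 µM too (-0.015), while the other medians of these lists by step were positive. Between the upper and lower doses the medians stayed positive in every alternative run, but the lean was weaker in some. With the part of the reads that lay outside counted genes as a covariate, 30 of 41 cytosolic ribosomal proteins were positive (median 0.018). Without the 3 libraries apart on the first component, 29 of 41 were positive (median 0.023), as were 22 of 29 members of the nuclear-encoded respiratory chain list (0.039) and 10 of 15 heat shock proteins (0.054). ATP5MPL, COX7C, NDUFC2 and CYCS, which rose, are not on the respiratory chain list. ATP5MC1, the ATP synthase ring subunit, had 182 ± 4.51 CPM at the upper and 169 ± 4.83 CPM at the lower doses (SD, n = 6 each; adjusted p = 0.126), and the chaperone HSP90AA1 had 1950 ± 96.7 CPM and 1790 ± 61.6 CPM (adjusted p = 0.115). The 13 mitochondrially encoded proteins did not share this lean, with 10 negative changes and a median of -0.03, which reached 0.036 on the positive side when 1 library was left out. Members of a list share libraries and scaling, so these counts describe the libraries and are no test.

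**Figure D4:**
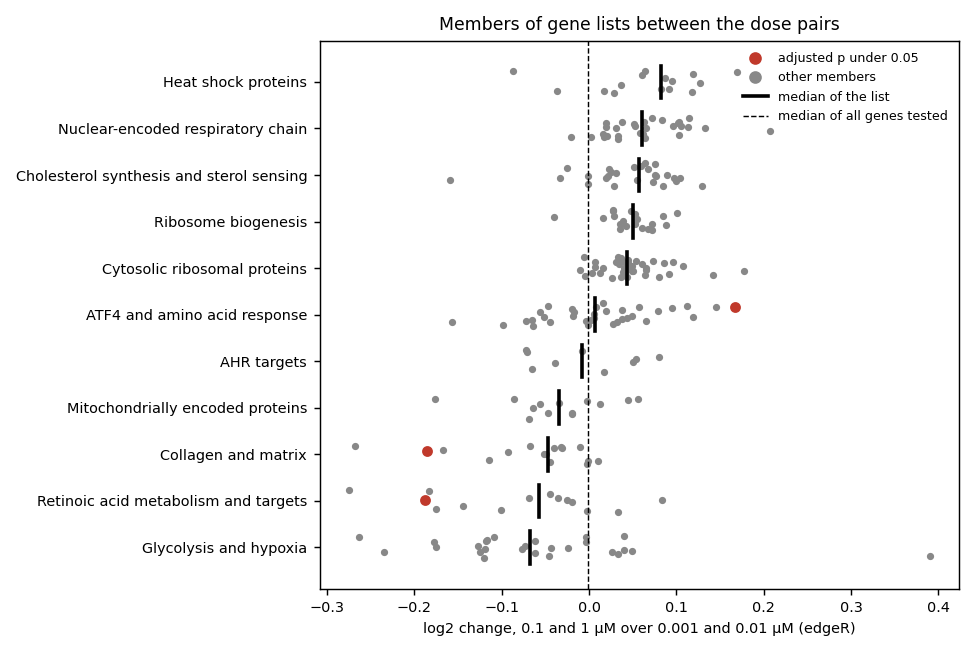
Log2 change between the upper doses (0.1 and 1 µM) and the lower doses (0.001 and 0.01 µM), horizontal axis, for each tested member of 11 gene lists (rows); red points passed the test, thick bars are list medians and the dashed line is the median of all genes tested. DDIT4, STRA6 and P4HA2 are the 3 red points, and medians run from 0.08 for heat shock proteins to -0.07 for glycolysis and hypoxia.

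The changed genes differed from the other genes in base composition and length, which the comparison did not use. Transcripts that fell had a median GC content of 58.7% and a median gene length, as deposited, of 7433 bases, those that rose 44.9% and 2965.5 bases, and all genes tested 48.4% and 4239.5 bases. Of the 28 falls, 16 lay among the 3242 tested genes richest in GC (57.9% or more) and 14 among the 3243 longest (7590 bases or more). Over all genes the median log2 change was 0.004 in the 3242 poorest in GC (41.1% or less) and -0.025 in the richest. The same medians were -0.047 and 0.034 at 0.01 against 0.001 µM and 0.057 and -0.064 at 1 against 0.1 µM, so the direction of this trend turned between steps of dose. Each library's trend with GC content averaged -0.0072 at the upper and 0.0072 at the lower doses (log2 per 10 percentage points; two-sided exact permutation test over 924 splits, p = 0.524). The trend with length had p = 0.0823 by the same exact permutation test (0.576 after Benjamini-Hochberg adjustment over 7 measures of the libraries). With both trends removed, 57 genes passed, 28 of them higher and 29 lower, and they included 26 of the 40. PPFIA4, NME1, PALM and STRA6 were among these, while KDM6B and NXPH4 were not (adjusted p = 0.0831 and 0.0921). The part of base composition in the other calls was not tested.

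**Figure D5:**
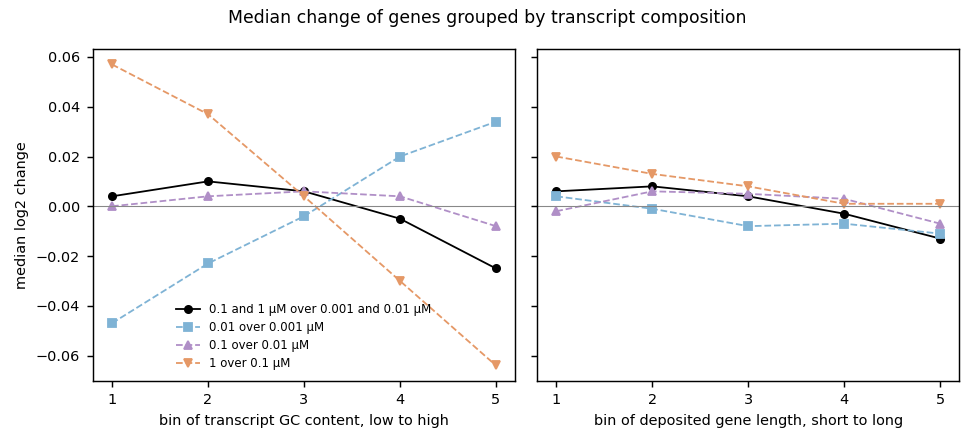
Median log2 change (vertical axis) of all genes tested, in 5 bins of equal size by transcript GC content (left) and deposited gene length (right); black circles are 0.1 and 1 µM over 0.001 and 0.01 µM and coloured dashed lines the 3 steps between neighbouring doses. The GC trend runs upwards for 0.01 over 0.001 µM and downwards for 1 over 0.1 µM, with the comparison of the dose pairs nearer to 0 than either.

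Between 100 and 10 µM, in 6 libraries that the comparison did not use, 2913 of 15526 genes changed (18.8%), 1333 of them higher at 100 µM (8.59%) and 1580 lower (10.2%). Of the 11 rises tested there, 4 also rose at 100 against 10 µM and 0 fell, and of the 28 falls 9 also fell and 2 rose. Beside PALM and STRA6, PTGS1 fell by 1.07 and IGFBP3 by 0.78 on the log2 scale at 100 against 10 µM (adjusted p = 8.93e-15 and 1.07e-13), while NXPH4 rose (log2 0.52, adjusted p = 2.4e-07). Taken the other way, genes that rose at 100 against 10 µM had a median log2 change of 0.014 at the upper against the lower doses, with 782 of 1325 (59%) positive, and genes that fell had -0.013, with 922 of 1579 (58.4%) negative. Over all genes tested in both, the median was -0.001 and 49.5% were positive. The 44 genes that rose at least 2-fold there had a median of 0.016, with 26 of 44 (59.1%) positive, and held 0 of the 40. The 78 that fell at least 2-fold had a median of -0.053, with 48 of 78 (61.5%) negative, and held 1 of the 40, beside the 0.247% called among all genes.

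The means at the doses left out place the 40 genes further. At 10 µM 27 of the 28 falls and 9 of the 12 rises lay nearer to the upper-dose mean than to the lower-dose mean, and at 100 µM 25 and 10. In untreated cells 18 of the 28 falls lay nearer to the upper-dose mean, while 11 of the 12 rises lay nearer to the lower-dose mean. Such shares were not counted over all genes tested, and the 40 genes share libraries and scaling. These positions are therefore a description, and their cause was not tested. KDM6B, for example, had 23.5 CPM at 0 µM, 29.6 at 0.001, 33.3 at 0.01, 27.5 at 0.1, 24.9 at 1, 24.0 at 10 and 25.6 CPM at 100 µM, with its highest means at 0.001 and 0.01 µM.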

How the data were processed

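Messenger RNA was sequenced from 21 libraries, 3 at each of 7 coumarin doses, and the 12 at 0.001 to 1 µM were compared. The authors deposited raw counts of reads per gene as whole numbers. FPKM, scaled by the authors for gene length and library total, were deposited beside them. The submitters' processing notes name HISAT2, DESeq2 and GRCh38 without versions, while the counter and its strand setting were not given in the sources used here. GENCODE release 29 holds all 58735 gene identifiers, 58690 at the deposited coordinates, and supplied GC content (known for 99.9% of genes tested).

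The counts went through edgeR 4.0.16 (R 4.3.3): filterByExpr, TMM scaling and the robust quasi-likelihood F test in 1 fit of 4 dose groups with 8 residual degrees of freedom. The main contrast is the mean of 0.1 and 1 µM minus the mean of 0.001 and 0.01 µM. A slope on log10 dose, any difference among the doses, the 3 steps between neighbouring doses, and 100 against 10 µM in 6 other libraries were also tested. Adjusted p-values follow Benjamini-Hochberg. Printed CPM use TMM factors of all 21 libraries, while fold changes come from the fit. Scripts were tested on simulated data.

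The genes, the 40 lists and the tests were chosen with earlier results of these data known. Genes are named by size among protein-coding genes that passed at 1 CPM or more, by smallest p of each test and list, or because they change at high doses; all 40 called genes are accounted for, those outside the rule after their values were seen. Alternatives were RLE and upper-quartile scaling, other filters, all 21 libraries in the fit, the replicate number as a block, each library left out, the part of the total behind FPKM outside the counted genes as a covariate, DESeq2 1.42.0, limma 3.58.1 on log2 of FPKM plus 1 or 0.1, and stricter thresholds. Removal of GC and length trends and leaving out the 3 libraries apart on the first component were added after seeing the data. Totals of 27295690 to 33246725 counts limit precision; a count of 0 allows up to 3 counts, which covers counting error only.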

Additional observations from a re-analysis of the deposited data

Results flagged for a closer look

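Among 116 groups of 6 libraries examined (51 genes and 7 measures of the libraries, at the upper and at the lower doses), 5 held a library far from the other 5, or 4.31%, beside about 1 in 20 by chance. Each group pools 2 doses, so a difference between doses can hide or make such a gap. THNSL2 had its lowest value at the lower doses, 2.58 CPM, in 0.001 µM replicate 2, where the next was 3.31 CPM. CDON had its lowest value at the upper doses, 22.1 CPM, in 0.1 µM replicate 2, with the next at 25.7 CPM, and the same library held the lowest upper-dose value of CDH1, 0.295 CPM, with the next at 0.365 CPM. At the lower doses, 0.01 µM replicate 3 had the largest share of mitochondrial counts, 8.75% with the next at 7.47%, and of counts in the 10 most abundant genes, 9.41% with the next at 8.44%.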

How the results depend on the processing

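Counts of changed genes below 10 µM depended on the settings, and the cause was not tested; they are given against 40 for the upper against the lower doses, 2, 9 and 7 for the 3 steps from low to high, 60 for any difference and 2 for the slope. With no filter on low counts they were 135 for the upper against the lower doses, 30, 36 and 200 for the steps, 500 for any difference and 40 for the slope. Those 135 held all 40. With 1 CPM required in 3 libraries they were 10 for the dose pairs, 4 for the first step and 0 for the slope. All 21 libraries in 1 fit gave 17, 4 for the first step, 15 for the last and 96 for any difference; the slope was not run so. The part outside the counted genes as a covariate gave 21, 1 for the first step and 28 for the slope. DESeq2 gave 84, which held 26 of the 40, steps of 10, 17 and 73, 254 for any difference and 39 for the slope. Limma on log2 FPKM plus 1 gave 0 for the dose pairs (1535 at an unadjusted p under 0.05), 3 for the first step and 0 for the second and last steps. It gave 2 for any difference and 0 for the slope. FPKM plus 0.1 gave the same counts (1532 unadjusted for the dose pairs). In either fit, 0 of the 3 genes at the first step were among the 2 of the main fit. Upper-quartile scaling gave 92 for any difference and 0 for the slope. At an adjusted p under 0.01 the numbers were 3, 4 for the second step, 3 for the last, 6 for any difference and 0 for the slope, and 1707 for 100 against 10 µM (2913 at 0.05). A fold of at least 1.5 left 1, and 2 groups of 6 with doses pooled left 2. Removing GC and length trends gave 8 for the slope. Without the 3 libraries apart on the first component the counts were 117, then 10, 25 and 25 for the steps, 181 for any difference and 185 for the slope. Those 117 held 26 of the 40.

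Leaving out each library in turn gave 2 to 155 for the dose pairs, 2 to 139, 0 to 16 and 2 to 161 for the steps, 14 to 788 for any difference (788 without 0.001 µM replicate 3), 0 to 5 for the slope and 1780 to 3194 for 100 against 10 µM (1780 without 100 µM replicate 3). Libraries of different doses with the same replicate number had correlations of -0.155 to 0.032, with 0 of 18 over 0.1. Such values cannot show whether these libraries were grown or processed together. With the number as a block the counts were 21 for the dose pairs, 4 for the last step and 21 for any difference. For single genes, 79 results were followed over 1924 values, of which 772 lost a call and 29 gained one. Those for any difference among the doses have no direction, and none of the others reversed. Depth limits genes such as CDH1, with 2 to 13 counts per library.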
